A study of Mus musculus with 6 samples.

Results

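Genes that mark bile duct cells and liver progenitor cells were read in cell lines grown out of mouse liver tumors. The set was chosen by gene name and holds 8 genes, *Sox9*, *Sox4*, *Epcam*, *Spp1*, *Prom1*, *Cd44*, *Cd24a* and *Cftr*, out of 20856 genes with values, and all 8 have a row in the table. RNA was sequenced from 6 lines of C57BL/6 background, 3 of the genotype *Myc*; sg*Trp53* (sgp53 in the sample labels) and 3 of the genotype *Myc*; sg*Kmt2c* (sgMll3 in the labels). Every tumor had been started in the liver by hydrodynamic injection of a *Myc* transposon with a px330 plasmid that expresses Cas9 and a guide RNA, against *Trp53* in one genotype and against *Kmt2c*, the gene of the histone methyltransferase MLL3, in the other. All 6 lines therefore carry the *Myc* transposon, and no line serves as an untreated control. The mice were young adult females. The cells received no further treatment and were passaged until no fibroblasts were visible, so each library is a cultured line and not a tumor. The labels call sg*Kmt2c* replicates 2 and 3 lines 2A and 2T1, while the study describes 3 lines from different mice per genotype.

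In the healthy liver, hepatocytes and bile duct cells (cholangiocytes) arise from a common fetal precursor, the hepatoblast. *Sox9* encodes a transcription factor of the bile duct and of duct-associated progenitor cells, and SOX4 acts beside it in bile duct formation. EpCAM, prominin-1 (CD133, from *Prom1*), CD44 and CD24 are surface proteins used to sort progenitor and tumor cells, osteopontin (from *Spp1*) is a secreted glycoprotein made by duct cells, and CFTR is the chloride channel through which cholangiocytes add fluid to bile. Tumors started in hepatocytes can turn on parts of this program.

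The libraries held 5312182 to 6878625 reads on genes among sg*Trp53* lines and 3680068 to 4704539 among sg*Kmt2c* lines, so every sg*Kmt2c* library was the shallower. Values are RPKM, the reads of a gene scaled to its listed transcript length and to the total of the library. *Trp53* lay at 17.2 to 19.4 RPKM among sg*Trp53* lines and at 92.2 to 124 RPKM among sg*Kmt2c* lines, which fits the label of every library, whereas *Kmt2c* overlapped between the genotypes (18.4 to 24.2 and 9.51 to 25.0 RPKM). Of 14 hepatocyte markers, several that define mature hepatocytes were near 0. *Alb*, which encodes albumin, did not exceed 4.36 RPKM in any line, *Cps1* of the urea cycle 1.38 RPKM, *Cyp2e1* 0.206 RPKM and *Tdo2* 0.0682 RPKM, and *G6pc* was listed at 0 in all 6. Others were present in some or all lines, such as the transcription factor *Cebpa* at 4.51 to 25.3 RPKM and the fibrinogen gene *Fgb* at up to 32.5 RPKM. Keratin 19 (*Krt19*), the defining keratin of bile ducts, reached 37.9 RPKM or more in 5 of the 6 lines.

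The 8 markers spanned a wide range of levels, and their listed transcript lengths (1507 to 6391 bases) allow levels per length to be compared among them. Among sg*Trp53* lines *Spp1* had the highest mean, 467 ± 364 RPKM (SD, n = 3 lines), followed by *Cd24a* (120.5 ± 36.0), *Cd44* (86.4 ± 32.5), *Sox4* (49.1 ± 7.24), *Sox9* (6.39 ± 2.20), *Prom1* (3.22 ± 2.50), *Cftr* (2.20 ± 2.07) and *Epcam* (1.25 ± 1.05, all in RPKM as mean ± SD, n = 3). *Spp1*, *Cd24a*, *Cd44* and *Sox4* form a chain in which each overlaps the next among the lines. *Sox9* was separate from *Sox4*, since its highest line (8.92 RPKM) lay under the lowest *Sox4* line (41.1 RPKM), and it overlapped with *Prom1*, as did *Prom1* with *Cftr* and *Cftr* with *Epcam*. Among sg*Kmt2c* lines the order was the same down to *Sox4* (*Spp1* 297 ± 257, *Cd24a* 158 ± 82.5, *Cd44* 89.3 ± 16.1, *Sox4* 59.4 ± 24.8 RPKM), but *Epcam* (11.4 ± 13.9 RPKM) came before *Sox9* (8.46 ± 2.98), *Prom1* (1.15 ± 1.63) and *Cftr* (0.183 ± 0.317 RPKM, SD, n = 3 each). There the ranges of neighbours overlapped except in 2 places, between *Sox4* (lowest line 44.5 RPKM) and *Epcam* (highest 27.0 RPKM), and between *Sox9* (lowest 6.36 RPKM) and *Prom1* (highest 3.01 RPKM). *Spp1* stood above 89.8% of all genes in its lowest library and above 99.5% in its highest.

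**Figure D1:**
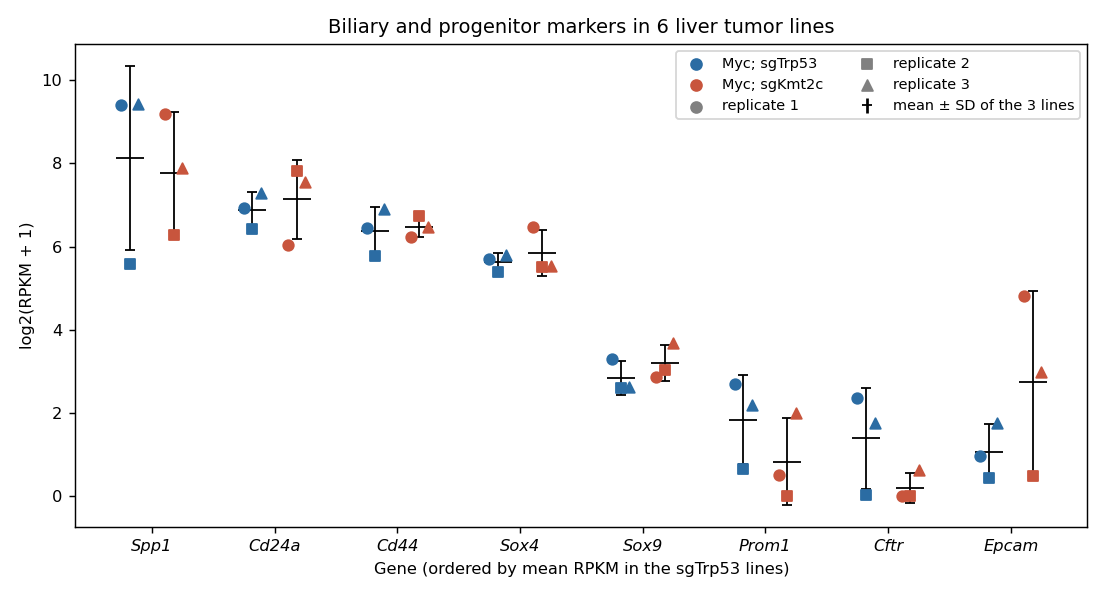
Level of each marker in each line as log2(RPKM + 1), with symbols for the replicate, colors for the genotype and bars for the mean ± SD of 3 lines. For every gene the points of the genotypes overlap, and the points spread furthest apart for *Spp1* and *Epcam*.

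The comparison of the genotypes asks whether lines from tumors with *Kmt2c* targeted differ in these markers from lines from tumors with *Trp53* targeted. No marker differed beyond the spread between lines. Of the 7 markers with at least 1 RPKM in at least 3 libraries, 0 passed an adjusted p-value of 0.05 (limma on log2(RPKM + 1), Benjamini-Hochberg adjustment over 11617 genes), where 0.129% of all tested genes did (0.0516% higher and 0.0775% lower among sg*Kmt2c* lines). Also 0 of the 7 had an unadjusted p-value under 0.05, against 8.58% of all tested genes, and limma voom on the recovered reads likewise gave 0 at either threshold. The lines of the genotypes overlapped in all 8 markers, so 0 were separated, where 16.2% of the tested genes were (5.72% with the sg*Kmt2c* lines higher and 10.4% with them lower) and 13.2% of the genes above 0 in any library, which include *Cftr*. Of the 7 tested markers 5 had a higher and 2 a lower estimate among sg*Kmt2c* lines, with a median log2 fold change of 0.21 beside a median of -0.09 over all tested genes. For any one gene, 3 lines against 3 permit no exact permutation p-value (two-sided) below 0.1.

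**Figure D2:**
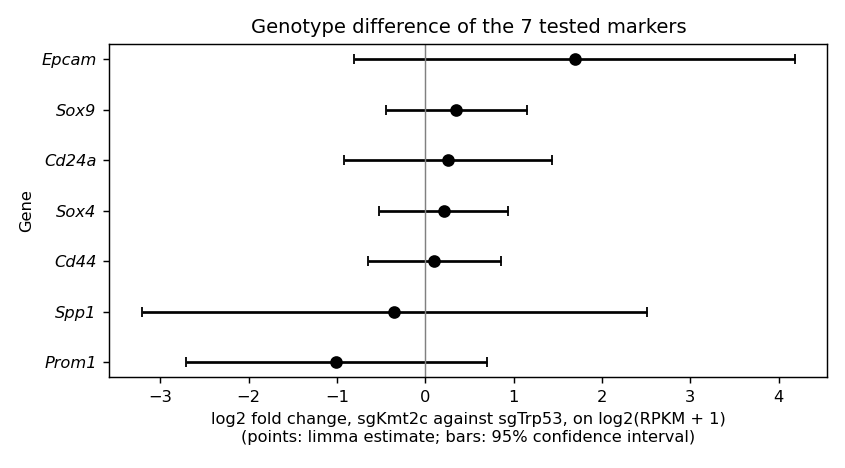
Log2 fold change (sg*Kmt2c* against sg*Trp53*) of the 7 tested markers with its 95% confidence interval from limma. All 7 intervals include 0, and they are widest for *Spp1* (-3.21 to 2.51) and *Epcam* (-0.80 to 4.18).

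Among the transcription factors, *Sox9* (ENSMUSG00000000567, chromosome 11 of GRCm38 from 112782224 to 112787760) lay at 8.92, 5.05 and 5.19 RPKM in sg*Trp53* replicates 1, 2 and 3 and at 6.36, 7.15 and 11.9 RPKM in sg*Kmt2c* replicates 1, 2 and 3. The highest sg*Trp53* line exceeded all sg*Kmt2c* lines but replicate 3. The log2 fold change was 0.35 with a standard error of 0.332 (95% interval -0.44 to 1.15, adjusted p = 0.760 from limma, exact permutation p = 0.4), and it was 0.11 when sg*Kmt2c* replicate 3 was left out and 0.58 when sg*Trp53* replicate 1 was. *Sox4* (ENSMUSG00000076431, chromosome 13 from 28948919 to 28953713) lay at 51.2, 41.1 and 55.1 RPKM among sg*Trp53* lines and at 88.0, 44.5 and 45.7 RPKM among sg*Kmt2c* lines. Replicate 1 of the sg*Kmt2c* lines stood alone above the rest, and the other 5 lines lay close together. Its log2 fold change was 0.21 (standard error 0.306, interval -0.52 to 0.94, adjusted p = 0.838 from limma, exact permutation p = 0.8), and it was -0.11 without sg*Kmt2c* replicate 1. In RefSeq *Sox4* overlaps a long noncoding RNA gene, *Gm46405*, *Cd44* a small nuclear RNA gene, *Gm23731*, and *Cftr* a pseudogene, *Gm15595*. The use of strand in counting is not given in the sources used here, so reads shared with these genes cannot be told apart.

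CD44, a receptor for hyaluronan, was among the steadier markers. *Cd44* (ENSMUSG00000005087, chromosome 2 from 102811141 to 102901665) lay at 85.6, 54.2 and 119 RPKM among sg*Trp53* lines and at 74.3, 106 and 87.4 RPKM among sg*Kmt2c* lines, all of which lay between the sg*Trp53* extremes. Its log2 fold change was 0.10 (standard error 0.316, interval -0.65 to 0.86, adjusted p = 0.927 from limma, exact permutation p = 0.8). The sign turned without sg*Trp53* replicate 2 (-0.19) and without sg*Kmt2c* replicate 2 (-0.03). CD24 is a small mucin-like protein held to the membrane by a lipid anchor. *Cd24a* (ENSMUSG00000047139, chromosome 10 from 43579169 to 43584262) lay at 120.1, 84.7 and 157 RPKM among sg*Trp53* lines and at 65.2, 223 and 186 RPKM among sg*Kmt2c* lines, which held both the lowest line and the 2 highest. Its log2 fold change was 0.25 (standard error 0.492, interval -0.92 to 1.43, adjusted p = 0.880 from limma, exact permutation p = 0.7), with -0.081 when sg*Kmt2c* replicate 2 was left out and 0.80 when sg*Kmt2c* replicate 1 was. In the main fit with all lines, the 95% intervals of *Sox4* and *Cd44* lay within a 2-fold change in either direction. Those of *Sox9* and *Cd24a* left room for a rise of more than 2-fold. Under the alternative fits the log2 fold change ranged from -0.11 to 0.37 for *Sox4* and from -0.32 to 0.37 for *Cd44*. Intervals are not given for those fits, so a change of more than 2-fold is not excluded for either gene.

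Osteopontin, the secreted member, was the marker with the highest mean RPKM in both genotypes and the largest SD of log2(RPKM + 1) within genotypes. *Spp1* (ENSMUSG00000029304, chromosome 5 from 104435118 to 104441050) lay at 673, 46.8 and 682 RPKM among sg*Trp53* lines, from 6189, 375 and 7081 reads, and at 578, 76.1 and 236 RPKM among sg*Kmt2c* lines, from 4107, 423 and 1523 reads. Replicate 2 was the low line in each genotype, and the highest line had 14.6 times the level of the lowest, less than the 73.4 times of *Epcam*. The log2 fold change was -0.35 (standard error 1.20, interval -3.21 to 2.51, adjusted p = 0.934 from limma, exact permutation p = 0.8). It depended on the line left out, being -1.63 without sg*Trp53* replicate 2 and above 0 without sg*Trp53* replicate 1 (0.28), sg*Trp53* replicate 3 (0.29) or sg*Kmt2c* replicate 2 (0.40).

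Of the surface proteins of low abundance, EpCAM, a cell adhesion protein of epithelia, had the largest fold change in size on the log2(RPKM + 1) scale among the tested markers. *Epcam* (ENSMUSG00000045394, chromosome 17 from 87635979 to 87651106) lay at 0.964, 0.369 and 2.42 RPKM among sg*Trp53* lines, from 12, 4 and 34 reads, and at 27.0, 0.399 and 6.88 RPKM among sg*Kmt2c* lines, from 260, 3 and 60 reads. Replicates 1 and 3 of the sg*Kmt2c* lines lay above every sg*Trp53* line, while replicate 2 lay among the sg*Trp53* lines. A log2 fold change of 1.69 resulted (standard error 1.04, interval -0.80 to 4.18, adjusted p = 0.675 from limma, exact permutation p = 0.3). It was 0.66 when sg*Kmt2c* replicate 1 was left out and 2.83 when sg*Kmt2c* replicate 2 was. No fit with a line left out brought it past the adjusted threshold. Without sg*Kmt2c* replicate 2 its unadjusted p-value was 0.00605 (limma, adjusted p = 0.427). In that fit 1029 of the 11617 tested genes had an unadjusted p-value under 0.05.

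Prominin-1, a protein of membrane protrusions, and CFTR leaned the other way. *Prom1* (ENSMUSG00000029086, chromosome 5 from 43993620 to 44102032) lay at 5.54, 0.569 and 3.55 RPKM among sg*Trp53* lines, from 134, 12 and 97 reads, and at 0.428, 0 and 3.01 RPKM among sg*Kmt2c* lines, from 8, 0 and 51 reads. Its 0 in sg*Kmt2c* replicate 2 allows up to 0.206 RPKM (3 reads, counting error only), under all lines with reads, and sg*Kmt2c* replicate 3 lay among the sg*Trp53* lines. This gave a log2 fold change of -1.01 (standard error 0.714, interval -2.71 to 0.70, adjusted p = 0.712 from limma, exact permutation p = 0.2), which ranged from -1.61 without sg*Trp53* replicate 2 to -0.58 without sg*Trp53* replicate 1. *Cftr* (ENSMUSG00000041301, chromosome 6 from 18170687 to 18322768) was too low to be tested across genes. It lay at 4.16, 0.0294 and 2.41 RPKM among sg*Trp53* lines, from 162, 1 and 106 reads, and at 0, 0 and 0.549 RPKM among sg*Kmt2c* lines, from 0, 0 and 15 reads. The 0 values allow up to 0.0998 RPKM in sg*Kmt2c* replicate 1 and 0.128 RPKM in replicate 2 (3 reads each). Replicates 1 and 3 of the sg*Trp53* lines lay above every sg*Kmt2c* line, but replicate 2, with a single read, did not (exact permutation p = 0.2). The difference in mean log2(RPKM + 1) was -1.18, and it ranged from -1.86 without sg*Trp53* replicate 2 to -0.69 without sg*Trp53* replicate 1.

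Promoter sequences are shown for the 4 markers that differed most from line to line, *Spp1*, *Epcam*, *Prom1* and *Cftr*. A link between promoter sequence and the spread between lines was not tested. The sequences, from RefSeq on GRCm38.p6, are the 250 bases before the start site, written 5′ to 3′ on the strand of the gene. Of the 8 markers 6 have such a window in the table used. *Spp1* and *Prom1* have 2 windows each, of which the one nearest to the listed 5′ end is shown, and that of *Prom1* lies inside the listed gene span, before a RefSeq start that lies downstream of the listed one. Capitals mark matches, on either strand, to the core motifs of SOX factors (ACAAAG) and TEAD factors (GGAATG).
*Spp1*, chr5:104434861-104435110, plus strand: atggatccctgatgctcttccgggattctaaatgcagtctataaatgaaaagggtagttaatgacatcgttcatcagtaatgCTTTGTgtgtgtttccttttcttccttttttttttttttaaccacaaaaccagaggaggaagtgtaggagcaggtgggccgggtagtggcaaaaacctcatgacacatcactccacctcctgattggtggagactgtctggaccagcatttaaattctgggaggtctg
*Epcam*, chr17:87635729-87635978, plus strand: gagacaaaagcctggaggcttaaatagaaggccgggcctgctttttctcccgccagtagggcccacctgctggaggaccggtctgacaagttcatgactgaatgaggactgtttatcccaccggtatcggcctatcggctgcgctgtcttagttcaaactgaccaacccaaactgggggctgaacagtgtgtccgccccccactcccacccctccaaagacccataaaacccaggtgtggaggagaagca
*Prom1*, chr5:44101737-44101986, minus strand: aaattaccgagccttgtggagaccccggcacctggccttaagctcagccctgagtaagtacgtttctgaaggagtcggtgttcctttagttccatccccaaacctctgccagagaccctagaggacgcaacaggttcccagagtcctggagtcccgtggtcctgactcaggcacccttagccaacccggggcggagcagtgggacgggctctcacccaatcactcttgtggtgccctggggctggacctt
*Cftr*, chr6:18170437-18170686, plus strand: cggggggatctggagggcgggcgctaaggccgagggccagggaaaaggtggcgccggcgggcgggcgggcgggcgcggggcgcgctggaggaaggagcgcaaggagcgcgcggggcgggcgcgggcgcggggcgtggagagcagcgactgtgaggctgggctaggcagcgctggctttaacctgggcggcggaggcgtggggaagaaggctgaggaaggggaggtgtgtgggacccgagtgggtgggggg
The *Cftr* window had 30 CpG dinucleotides and 76.4% G and C, more CpG than 94.1% of 32851 promoter windows of this length, whose median was 6. The *Spp1* window had 3 CpG and 43.6% G and C, *Epcam* 8 and 56.4%, and *Prom1* 9 and 59.2%. Of the 4, the *Spp1* window held 1 SOX match and the other 3 held no match to either motif. In the steadier *Sox4*, with 11 CpG, 1 TEAD match was found, and in *Cd44*, with 5 CpG, none. Matches to the SOX and TEAD letters occur in 16.46% and 12.64% of all windows. They are descriptions of the letters and say nothing about binding.

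Much of the variation was between lines of the same genotype. Within genotypes the markers had an SD of log2(RPKM + 1) of 1.87 for *Spp1*, 1.61 for *Epcam*, 1.06 for *Prom1*, 0.892 for *Cftr*, 0.740 for *Cd24a*, 0.438 for *Cd44*, 0.417 for *Sox9* and 0.416 for *Sox4*. The median over all tested genes was 0.368, and all 7 tested markers lay above it. The value for *Spp1* exceeded that of 98.0% of tested genes, *Epcam* 96.8% and *Prom1* 91.2%, while *Sox9* and *Sox4* each exceeded 57.3%. Among sg*Trp53* lines replicate 2 was the lowest of the 3 for all 8 markers, a place it took for 40.0% of all tested genes. Among sg*Kmt2c* lines replicate 2 was the lowest for 4 markers (*Sox4*, *Epcam*, *Spp1* and *Prom1*) and for 29.6% of all tested genes, replicate 1 for 3 (*Sox9*, *Cd44* and *Cd24a*) and for 44.7% of all tested genes, and *Cftr* was at 0 in both. Replicate 2 was thus the lowest line in both genotypes for 4 of the 8 markers, and for 15.1% of all tested genes. The labels do not say that lines of equal replicate number share anything. These are descriptions of the lines, and no test was made of them.

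**Figure D3:**
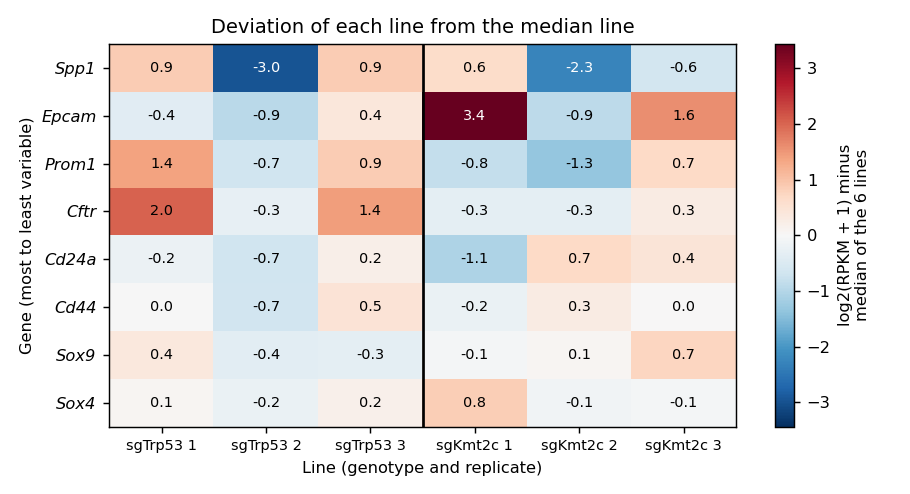
Deviation of each line from the median of the 6 lines, in log2(RPKM + 1), for the 8 markers from the most to the least variable. The column of sg*Trp53* replicate 2 is below the median for every gene, and sg*Kmt2c* replicate 1 combines the highest *Epcam* and *Sox4* with the lowest *Cd24a*.

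The markers did not vary as one block. Over the 6 lines, *Prom1* and *Cftr* followed each other most closely, with a Pearson correlation of 0.909 (exact permutation p = 0.00278) and a Spearman correlation of 0.986 (exact permutation p = 0.00556). After Benjamini-Hochberg adjustment over the 28 pairs of markers, these became 0.0778 and 0.156, so no pair passed 0.05. The Pearson correlation of *Prom1* and *Cftr* was 0.871 without the 2 lines farthest from the median of *Prom1*, and 0.882 for the deviations from the genotype means. *Sox4* and *Epcam* came next by Pearson correlation, at 0.836 (exact permutation p = 0.0486, adjusted 0.681) and a Spearman correlation of 0.829 (exact permutation p = 0.0583, adjusted 0.544). Without the 2 lines farthest from the median of *Sox4* the former was 0.0127, so it rests on those lines. *Sox4* and *Spp1* had the same Spearman correlation of 0.829 (exact permutation p = 0.0583, adjusted 0.544), with a Pearson correlation of 0.663 (exact permutation p = 0.124, adjusted 0.793) that was 0.898 without those lines. The values of a line share its library, its depth and its scaling.

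Among all tested genes, those whose log2(RPKM + 1) was most like a marker over the 6 lines were *Jrk* and *Ndufc2* for *Sox9* (Pearson correlation 0.990 and 0.980), *Pcdh1* and *Zfand2a* for *Sox4* (0.994 and 0.993), and *Tnfrsf23* for *Epcam* (0.9995). For *Spp1* they were *Cdk6* and *Cmtm8* (0.995 and 0.994), for *Prom1* *Ivns1abp* and *Pgam5* (0.994 and 0.993), for *Cd44* *Polr2g* and *Jade2* (0.981 and 0.975), and for *Cd24a* *Tfb2m* and *Tmem80* (0.994 for each). No other marker of the set was among them. Between 10 genes (*Cd44*) and 117 genes (*Sox4*) had a correlation over 0.95 with a marker, and with only 6 lines these values are descriptions.

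Other genes of bile duct and progenitor cells also differed between lines, to very unequal degrees. Of 24 such genes 15 could be tested, with a within-genotype SD of log2(RPKM + 1) from 0.429 (*Slc4a2*, named after its values were seen) to 3.998 (*Dlk1*). All 15 lay above the median of 0.368 over all tested genes, as did the 7 tested markers. None of the 15 passed the adjusted threshold (limma), and 1 had an unadjusted p-value under 0.05, where 8.58% of all tested genes did. That gene was *Igf2bp3*, an RNA-binding protein of fetal tissue, at 19.5, 12.8 and 16.3 RPKM among sg*Trp53* lines and 0.195, 9.80 and 5.22 RPKM among sg*Kmt2c* lines (log2 fold change -1.97, unadjusted p = 0.0404, adjusted p = 0.569). The next in size were *Dlk1*, a hepatoblast marker (-1.56, adjusted p = 0.853), *Pkhd1*, a protein of the cholangiocyte cilium (-1.47, adjusted p = 0.697), and *Afp*, the fetal serum protein alpha-fetoprotein (0.84, adjusted p = 0.813, all from limma). *Sctr*, the secretin receptor of bile ducts, was listed at 0 in all 6 lines. The list had a median log2 fold change of -0.29, beside -0.09 over all tested genes, and the genotypes did not overlap in 2 of the 15 genes, *Igf2bp3* and *Ncam1*, where 16.2% of all tested genes did not. The keratins were chosen for description after their values were seen. *Krt19* lay at 214, 37.9 and 223 RPKM among sg*Trp53* lines and at 1866, 7.06 and 166 RPKM among sg*Kmt2c* lines, so replicate 2 was again the lowest of each genotype and sg*Kmt2c* replicate 1 the highest of all. *Krt7* showed the same extremes, at 22.8, 0.817 and 94.7 RPKM against 990.0, 0.786 and 5.76 RPKM.

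In sg*Kmt2c* replicate 1, the line with the most *Epcam* and *Sox4*, several hepatocyte genes were at their highest of the 6 lines. These were *Hnf4a*, *Apob*, *Alb*, *Ttr* (14.1 RPKM, 81 reads), *Apoa1* (1.44 RPKM, 7 reads) and *Cps1* (1.38 RPKM, 36 reads). *Cebpa* was at its lowest there (4.51 RPKM) and at its highest in the replicate 2 lines (25.3 and 16.3 RPKM). *Fgb* was higher in sg*Kmt2c* replicate 3 (32.5 RPKM) than in sg*Kmt2c* replicate 1 (20.1 RPKM). *Asgr1*, *Cyp2e1*, *Tat*, *Pck1*, *G6pc* and *Tdo2* had 0 reads in sg*Kmt2c* replicate 1. *Hnf4a*, a transcription factor of hepatocytes, had 2409 reads there, against 8 to 65 among sg*Trp53* lines and 1 and 313 in sg*Kmt2c* replicates 2 and 3. *Apob*, the apolipoprotein of low-density lipoprotein, had 23099 reads there, against 70 to 376 among sg*Trp53* lines and 1 and 616 in the other sg*Kmt2c* lines. The summed level of the 14 hepatocyte markers was 46.9 to 76.4 RPKM among sg*Trp53* lines and 18.5 to 5617 RPKM among sg*Kmt2c* lines, and *Hnf4a* and *Apob*, whose listed lengths are short, made up most of its highest value. Without these genes the sum of the other 12 was 23.0, 31.7 and 11.7 RPKM among sg*Trp53* lines and 45.9, 17.7 and 43.3 RPKM among sg*Kmt2c* lines. Of the 5 that could be tested none passed the adjusted threshold and none had an unadjusted p-value under 0.05 (limma), with a median log2 fold change of 0.60. Reads are given for *Hnf4a* and *Apob*, and levels are not compared with other genes, because their listed lengths are 9.9% and 8.0% of the longest coding transcript in an older annotation, and 16.9%, 7.1% and 14.4% for *Krt7*, *Pkhd1* and *Dlk1*. For the 8 markers of the set the share was 99.7% to 106%.

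**Figure D4:**
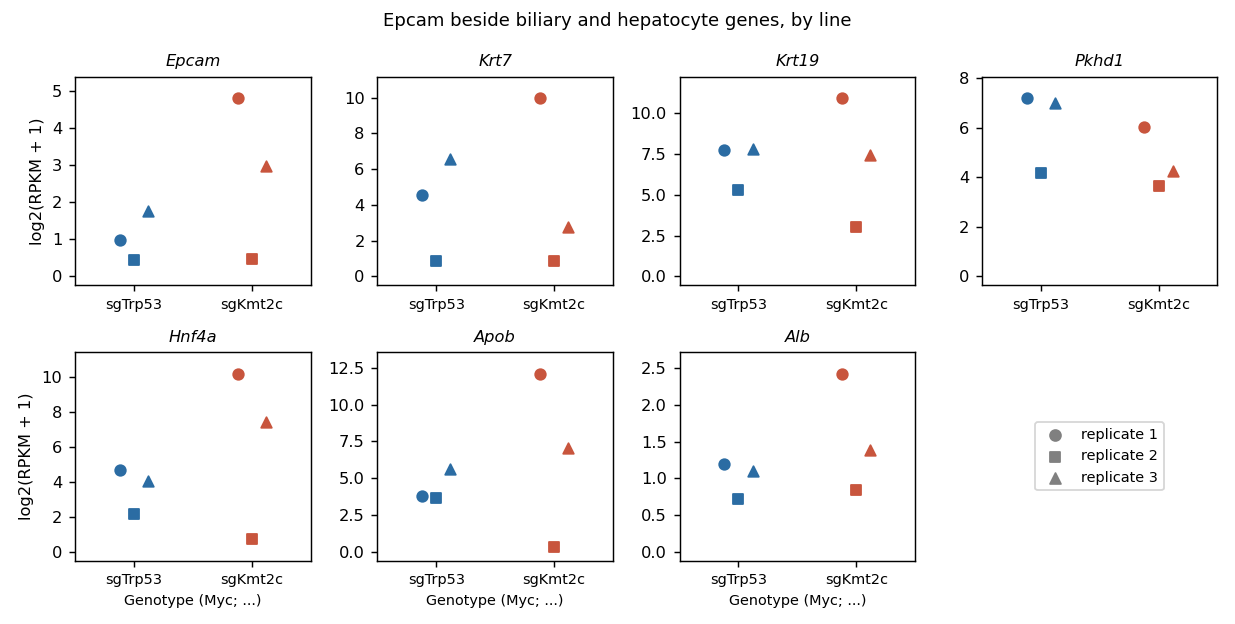
*Epcam* beside 6 biliary and hepatocyte genes in each line, as log2(RPKM + 1), with symbols for the replicate and colors for the genotype (each panel has its own vertical axis). The square of replicate 2 is the lowest of its genotype in all 7 panels, and sg*Kmt2c* replicate 1 is the highest line for *Epcam*, *Krt7*, *Krt19*, *Hnf4a*, *Apob* and *Alb*. The panels are a selection from longer lists, in which not every gene had this order. *Cebpa*, not drawn, was highest in replicate 2 of each genotype (25.3 RPKM for sg*Trp53* and 16.3 RPKM for sg*Kmt2c*).

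Markers of other cell types also moved between the lines. The summed level of 10 fibroblast and stellate cell markers was highest in replicate 2 of each genotype, at 18.6, 1103 and 294 RPKM among sg*Trp53* lines and 0.282, 156 and 122 RPKM among sg*Kmt2c* lines. *Col3a1* made up most of it in sg*Trp53* replicate 2 (814 RPKM) and in sg*Kmt2c* replicates 2 and 3 (115 and 92.9 RPKM). *Col1a2*, *Postn* and *Pdgfrb* reached 114, 107 and 32.7 RPKM in sg*Trp53* replicate 2. In sg*Trp53* replicate 3 most of the sum came from *Acta2* (124 RPKM) and *Col1a2* (75.3 RPKM), with *Col3a1* at 22.4 RPKM. Among sg*Trp53* lines *Acta2*, *Col1a1*, *Dcn* and *Thy1* were highest in replicate 3 and not in replicate 2. *Lum* did not exceed 0.0790 RPKM and *Pdgfra* 0.860 RPKM in any line. Of these 10 markers 5 were tested and none passed the adjusted threshold or an unadjusted p-value of 0.05 (limma, median log2 fold change -2.04, the largest being *Col1a2* at -3.08 with adjusted p = 0.608). The part of these markers in the low values of replicate 2 was not tested, and in bulk RNA fewer cells of a type and less RNA per cell cannot be told apart. Without both replicate 2 lines, a choice made after the data were seen, 0 of the 7 markers passed the adjusted threshold (limma), with 1 at an unadjusted p-value under 0.05 (*Epcam*, log2 fold change 2.52, unadjusted p = 0.0202, adjusted p = 0.831). In that fit 615 of all 11617 tested genes had an unadjusted p-value under 0.05. Among 8 immune markers, *Ptprc*, which all white blood cells carry, did not exceed 0.0655 RPKM, and *Cd3e* was listed at 0 in all lines. Their sum was 21.9 to 58.7 RPKM among sg*Trp53* lines and 5.51 to 15.4 RPKM among sg*Kmt2c* lines, and *Lyz2* made up most of it in each sg*Trp53* line (17.1 to 45.3 RPKM). Of the 3 tested, none passed the adjusted threshold, and *Lyz2* and *Csf1r* had unadjusted p-values of 0.0105 and 0.0122 (limma, adjusted p = 0.427 and 0.440). An unadjusted p-value under 0.05 was reached by 8.58% of all tested genes. In *Lyz2* and *Csf1r* the sg*Kmt2c* lines were lower without overlap, as in 10.4% of all tested genes, while *Cd68* overlapped. The 6 endothelial markers summed to at most 1.27 RPKM in any line, and none could be tested.

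The relatives of the markers gave little further signal. Of 17 other SOX genes 12 had values and 4 could be tested, of which none passed the adjusted threshold and none had an unadjusted p-value under 0.05 (limma), with a median log2 fold change of -0.03. Their log2 fold changes were 0.83 for *Sox6* (adjusted p = 0.754), -0.63 for *Sox11* (adjusted p = 0.805), -0.21 for *Sox12* (adjusted p = 0.870) and 0.14 for *Sox13* (adjusted p = 0.944, all from limma), and *Sox21* was listed at 0 in all lines. *Sox8*, in the same subgroup as *Sox9*, was too low to be tested and is named after its values were seen, with 51, 3 and 42 reads among sg*Trp53* lines and 0 reads in each sg*Kmt2c* line. *Prom2*, the relative of *Prom1*, had at most 1 read in any line.

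Receptors and partners of osteopontin and of CD44 were read as the molecules through which these markers act. Of 18 such genes 11 could be tested, none passed the adjusted threshold (limma), and the median log2 fold change was -0.07. At an unadjusted p-value under 0.05 there was 1 of the 11, near the 8.58% of all tested genes, and 1 was without overlap, against 16.2% of all tested genes. It was *Hyal1*, a hyaluronan-degrading enzyme, which lay at 1.27, 1.11 and 0.751 RPKM among sg*Trp53* lines and at 4.08, 4.61 and 1.90 RPKM among sg*Kmt2c* lines. The groups did not overlap, with a log2 fold change of 1.10 (standard error 0.346, unadjusted p = 0.0165, adjusted p = 0.478 from limma). *Itgb3* (-1.03, adjusted p = 0.639) and *Itga5* (-0.997, adjusted p = 0.743), subunits of integrins that bind osteopontin or fibronectin, and *Ezr* (0.71, adjusted p = 0.752, all log2 fold changes from limma), which links CD44 to the actin cortex, were the next in size.

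Notch signaling and the YAP coactivator direct liver cells toward the bile duct fate, and 15 of 17 of their genes could be tested. None passed the adjusted threshold (limma), while 1 was higher and 3 lower among sg*Kmt2c* lines at an unadjusted p-value under 0.05, which 8.58% of all tested genes reached. The list had a median log2 fold change of -0.48, beside -0.09 over all tested genes, and the genotypes did not overlap in 4 of the 15 genes, with 1 higher and 3 lower, where 5.72% of all tested genes were separated and higher and 10.4% separated and lower. *Cyr61*, a target of YAP, lay at 123, 133 and 202 RPKM among sg*Trp53* lines and at 54.7, 59.9 and 82.3 RPKM among sg*Kmt2c* lines, with no overlap (log2 fold change -1.20, standard error 0.265, unadjusted p = 0.00312, adjusted p = 0.322 from limma). *Wwtr1*, which encodes the YAP relative TAZ, lay at 38.7, 46.1 and 48.7 against 31.4, 24.9 and 23.1 RPKM (log2 fold change -0.73, unadjusted p = 0.00939, adjusted p = 0.422 from limma). *Wwtr1* and the next 2 genes are named after their values were seen. The remaining genes under 0.05 were *Rbpj*, the DNA-binding partner of Notch (-0.83, unadjusted p = 0.0352), and *Notch1* (0.72, unadjusted p = 0.0487, both log2 fold changes from limma with adjusted p = 0.557 and 0.580). *Rbpj* overlapped between the genotypes. The other gene without overlap was *Notch2*, lower among sg*Kmt2c* lines (-0.62, unadjusted p = 0.0815, adjusted p = 0.619 from limma), also named after its values were seen. *Ankrd1* (-1.17) and *Ctgf* (-0.94), further targets of YAP, and *Hes1* (0.84), a target of Notch, had unadjusted p-values between 0.107 and 0.289 (limma, adjusted p = 0.639 to 0.743).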

How the data were processed

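RNA-seq of 6 cell lines was analysed, with genotype and replicate number taken from the sample labels. Per the labels, the authors used Trimmomatic, STAR and HTSeq with the GRCm38 (mm10) build, and the table they deposited gives RPKM. Their table has 6 further sample columns, which were not used, and 209 of its 21065 rows carry no values. The authors' own DESeq2 comparison, also deposited, holds fold changes and p-values and was not used. RPKM multiplied by the listed length gave whole reads (within 0.01 of a read) for 100% of values, which recovered the reads per gene. A read at 2 kb was worth 0.0727 to 0.136 RPKM.

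The test was limma 3.58.1 in R 4.3.3 (eBayes with trend) on log2(RPKM + 1), with genotype as the only term, over the 11617 genes that reached 1 RPKM in 3 or more libraries. Fold changes on this scale understate the change of low genes. Adjusted p-values are Benjamini-Hochberg over all tested genes, permutation tests are exact and two-sided, and confidence intervals are unadjusted. The step was tested on simulated reads with the same spread setting for every gene, which does not show its power at the spread between these lines. The limma p-values weigh the difference between genotypes against the spread between these lines. They treat the 3 lines of a genotype as independent, as the study describes them.

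The markers and all gene lists (biliary and progenitor genes, SOX genes, osteopontin and hyaluronan partners, relatives of the markers, Notch and YAP genes, and markers of hepatocytes, fibroblasts and stellate cells, immune and endothelial cells) were chosen with earlier results of these data known. Named from each list are the genes past the threshold, the up to 4 largest changes and genes at 0 in all libraries, and for each tested marker the 2 most correlated genes. A few genes that this rule names are not reported here. Genes named otherwise were chosen after their values were seen. Alternatives changed the pseudocount (0.1 and 0.5), the filter, the scaling (TPM, quantile, median-of-ratios), the model (limma voom, replicate block) and the lines included. Promoter sequences are from RefSeq (GRCm38.p6), and overlapping genes were looked up there. Plots were drawn with matplotlib.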

Additional observations from a re-analysis of the deposited data

How the results depend on the processing

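No marker passed an adjusted p-value of 0.05 in any fit (limma). Of the 123 values of single markers under an alternative, 112 were counted as unchanged and 10 turned sign. For the 7 tested markers, unchanged means the same direction and side of the threshold. For the untested *Cftr* it means a move smaller than the spread between lines. Under 1 alternative *Cftr* kept its direction but moved by more than that spread. Leaving out single libraries, fold changes (log2) ranged from 0.11 to 0.58 for *Sox9*, from -0.11 to 0.37 for *Sox4*, from -1.63 to 0.40 for *Spp1*, from -0.19 to 0.37 for *Cd44* and from -0.081 to 0.80 for *Cd24a*. The values that turned sign there were -0.11 for *Sox4* (without sg*Kmt2c* replicate 1), 0.28, 0.29 and 0.40 for *Spp1* (without replicate 1 or 3 of sg*Trp53* or replicate 2 of sg*Kmt2c*), -0.19 and -0.03 for *Cd44* (without replicate 2 of sg*Trp53* or of sg*Kmt2c*) and -0.081 for *Cd24a* (without sg*Kmt2c* replicate 2). With sg*Kmt2c* replicates 2 and 3 as 1 sample *Cd24a* had -0.017, and without both replicate 2 lines, a choice made after the data were seen, *Cd44* had -0.32 and *Cd24a* -0.31. The cause was not tested. The difference of *Cftr* was -2.58 with a pseudocount of 0.1, a scale that gives its low values more weight. *Prom1* also moved by more than that spread, to -2.13 on that scale and -2.57 with limma voom, where it exceeded *Epcam* in size (2.08 and 2.30).

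The number of genes past the adjusted threshold among all tested was 15, with 6 higher and 9 lower. It was 6 with a pseudocount of 0.1, 5 with no filter, 3 with limma voom, and 0 with sg*Kmt2c* replicates 2 and 3 as 1 sample and without both replicate 2 lines (1053 and 615 genes at an unadjusted p-value under 0.05). With each line left out it lay between 0 and 8. Quantile and median-of-ratios scaling gave 8 higher and 8 lower, and 7 higher and 7 lower. With the replicate block it was 0 (1085 genes at an unadjusted p-value under 0.05), no marker changed its call, and not every line correlated best with its own number. Deviations from the genotype means correlated at 0.192, 0.399 and 0.032 between lines of equal replicate number, so the numbers were not taken as pairs. Depth limits *Epcam*, *Prom1* and *Cftr*, which had fewer than 10 reads in some libraries.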
